A study of Rattus norvegicus with 4 samples.

Results

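RGS proteins (regulators of G-protein signalling) were described here through 10 of their genes, Rgs2, Rgs3, Rgs4, Rgs5, Rgs7, Rgs8, Rgs9, Rgs10, Rgs14 and Rgs16, out of 16568 genes with a named probe on the arrays. The genes were chosen by name, and their probes were found through the RefSeq transcript accession that the array files give for each spot. This gave 17 of 45598 non-control probes, and every one of the 10 genes had at least 1. GPR17 is a Gi-coupled receptor of OPCs that is switched on early in their maturation and must be switched off for myelination. A G protein-coupled receptor activates a G protein by exchanging GDP for GTP on its alpha subunit. RGS proteins bind the active alpha subunit and speed up GTP hydrolysis, so that the signal ends sooner. Those described here act mainly on the Gi and Gq classes, with Rgs2 known for its preference for Gq and Rgs9 for its role in ending light and dopamine responses.

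Oligodendrocyte precursor cells (OPCs) came from pooled cortices of Sprague-Dawley rats at postnatal day 2 and were expanded for 3 days with growth factors. They were then moved to differentiating medium with thyroid hormone and transfected at 50 nM with siRNA pools, either directed at Gpr17 (siGPR17) or non-targeting (siNEG), with no other agent or allele distinguishing the groups. RNA was taken 48 h later, at day 2 of maturation, from 2 samples per group, and each sample was hybridized to 1 single-colour Agilent array. The design text calls the samples independent without naming separate litters or cultures, so p-values measure the spread between these samples.

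Signals are given in intensity units after each array was scaled on its 75th percentile, and log2 fold changes are siGPR17 minus siNEG. The test was run with limma on the 28016 probes that stood well above background on 2 or more of the 4 arrays, among them probes of 11656 named genes, each represented by its brightest tested probe. A probe or gene was called where the fold change was 1.5 or more and the adjusted p was under 0.07, the thresholds of the study. Between 26997 and 28244 probes were well above background on an array, and no non-control probe was saturated. All arrays shared 1 slide and 1 scan, with siNEG in slide column 4 and siGPR17 in slide column 3, so column and treatment cannot be told apart. All 6 OPC marker genes read as a check of the cell type (Pdgfra, Cspg4, Ptprz1, Olig1, Olig2 and Sox10) were well above background on all arrays. The probe of Gpr17, the targeted gene, gave signals of 1107 and 1113 in siNEG and of 652 and 639 in siGPR17 OPCs. The log2 fold change was -0.78 ± 0.085 (SE), with an adjusted p of 0.209 in limma, so Gpr17 was not called. Its adjusted p was 0.0152 with a robust spread that followed the signal level in limma. With normexp background correction it was 0.0220 in limma, so Gpr17 was called under both. The study also checked the knockdown by qRT-PCR and reports it as successful. Bulk RNA cannot tell fewer cells of one type from less RNA per cell.

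By the brightest tested probe of each gene, Rgs2 differed most between the groups and was higher in siGPR17 OPCs, while the mean signals of Rgs3, Rgs9, Rgs10 and Rgs16 lay within a fold of 1.5 between the groups and Rgs4, Rgs5, Rgs7 and Rgs8 did not stand well above background on any array. Of the 10 genes, 5 had a tested probe. None of these 5 was called in limma (0 of 5), where 0% of all tested genes and 0.00357% of all tested probes were. At an unadjusted p under 0.05, 1 of the 5 was higher and 0 were lower, beside 7.43% of all tested genes higher and 8.73% lower. A fold of 1.5 or more was reached by 1 of the 5, beside 5.08% of all tested genes in either direction and 2.43% upwards. The groups did not overlap for 3 of the 5, Rgs2, Rgs3 and Rgs10, beside 53.4% of all tested genes. The gene at the unadjusted p and at the fold was Rgs2 in both cases. The methods' t-test called 0 of all 28016 tested probes, so its 0 of the 5 says nothing about the members.

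The sequences just upstream of the genes are shown for Rgs2 and for Rgs4, a close relative that was not detected. By the brightest tested probes Rgs2 was the member that differed most, though it was not called. Both windows hold the same partial motif of a cAMP response element (CRE), the site through which CREB acts. Each window holds 250 bases before and 50 bases after the gene start that RefSeq gives in GRCr8, read 5′ to 3′ on the gene's strand. It lies at chr13:58352617-58352916 (minus strand) for Rgs2 and at chr13:84475835-84476134 (minus strand) for Rgs4. Capitals mark the CRE short site TGACG and the TATA box motif TATAAA, each searched on both strands.
Rgs2: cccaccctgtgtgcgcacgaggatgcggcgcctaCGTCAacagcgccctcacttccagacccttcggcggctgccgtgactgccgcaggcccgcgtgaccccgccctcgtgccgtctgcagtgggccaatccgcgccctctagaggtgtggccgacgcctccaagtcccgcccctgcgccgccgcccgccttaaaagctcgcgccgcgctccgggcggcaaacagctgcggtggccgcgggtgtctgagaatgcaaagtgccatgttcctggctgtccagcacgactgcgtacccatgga
Rgs4: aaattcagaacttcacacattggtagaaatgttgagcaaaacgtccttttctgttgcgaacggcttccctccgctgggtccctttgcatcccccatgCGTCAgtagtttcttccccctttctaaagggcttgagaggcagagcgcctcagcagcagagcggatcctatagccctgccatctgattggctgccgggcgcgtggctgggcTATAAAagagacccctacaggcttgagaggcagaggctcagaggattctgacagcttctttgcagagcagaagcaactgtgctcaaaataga
Counted from the gene start, the short site begins at -216 in Rgs2 and at -153 in Rgs4, on the opposite strand in both, so that it reads CGTCA in the lines above, and the TATA motif of Rgs4 begins at -42. The short site was found in 3 of the 10 member windows, those of Rgs2, Rgs3 and Rgs4, beside 21.9% of all 27457 windows of this length. The full element TGACGTCA, which contains the short site, was in 0 of the 10 and in 1.89% of all windows. The TATA motif was in 2 of the 10, those of Rgs3 and Rgs4, and in 14.3% of all windows. A match of letters is a description and not a binding site.

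Of the 10 genes, 6 lie on chromosome 13. Rgs4 and Rgs5 are neighbours among the protein-coding genes of the RefSeq table, as are Rgs8 and Rgs16, and Rgs2 borders Rgs13. Neighbours did not share a level of detection in the case of Rgs8 and Rgs16, since Rgs16 was well above background on all 4 arrays and Rgs8 on 0.

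Rgs2 encodes a small RGS protein known to be induced quickly by many hormones and to restrain Gq signalling. Its single probe, A_64_P002156, gave signals of 1545 and 1401 in siNEG OPCs and of 2326 and 2653 in siGPR17 OPCs. The siGPR17 signals were both higher than either siNEG signal. Such a separation without overlap, in this direction, was seen for 28.1% of all tested genes. Mean signals were 1473 ± 102 for siNEG and 2489 ± 231 for siGPR17 (SD, n = 2 each), a 1.69-fold difference. On the log2 scale this is 0.76 ± 0.12 (SE), and with an adjusted p of 0.209 in limma the gene was not called. The 95% interval of the fold ran from 1.35 to 2.11. Among the 11656 tested genes, 145 were higher by as much as Rgs2 or more, Rgs2 included, and 147 had an unadjusted p as small as its own (0.00263). An exact permutation test over the 2 against 2 arrays has only 3 splits and so has 1 in 3 as its smallest two-sided p.

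**Figure D1:**
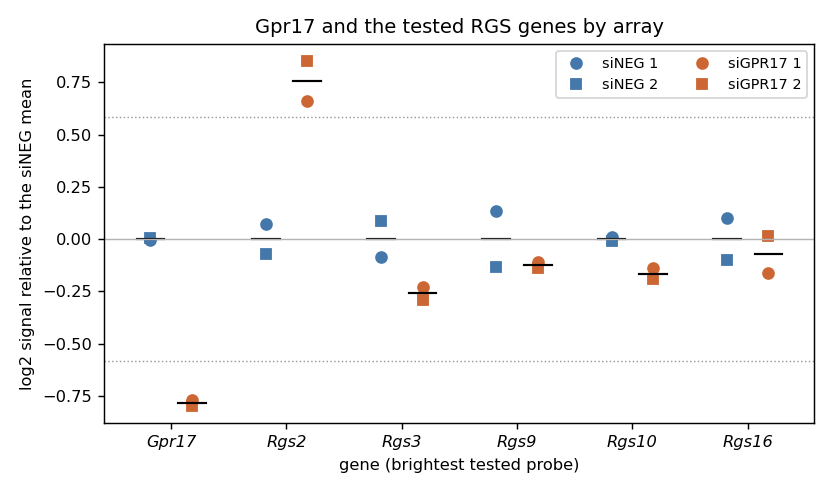
Log2 signal of Gpr17 and of the brightest tested probe of each tested RGS gene, relative to the mean of the siNEG arrays of that probe. Points are single arrays (blue siNEG, orange siGPR17; circles replicate 1, squares replicate 2), short black lines are group means, and dotted lines mark a fold of 1.5. Rgs2 lies at 0.66 and 0.85 on the siGPR17 arrays, and the other RGS genes lie between -0.29 and 0.02 there.

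The call on Rgs2 depended on the treatment of the spread and of the background. Of the 11656 tested genes, 184 were called with a robust spread that followed the signal level in limma. With normexp background correction 112 were called, beside 0 in the fit as reported. Rgs2 was called under both, with adjusted p-values of 0.0218 and 0.0238 in limma. Under the other alternatives its adjusted p ranged from 0.125 to 0.665. The log2 fold change itself stayed between 0.66, without siGPR17 replicate 2, and 0.89, with scaling on spike-in controls, where the median of all tested probes also moved to 0.15.

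**Figure D2:**
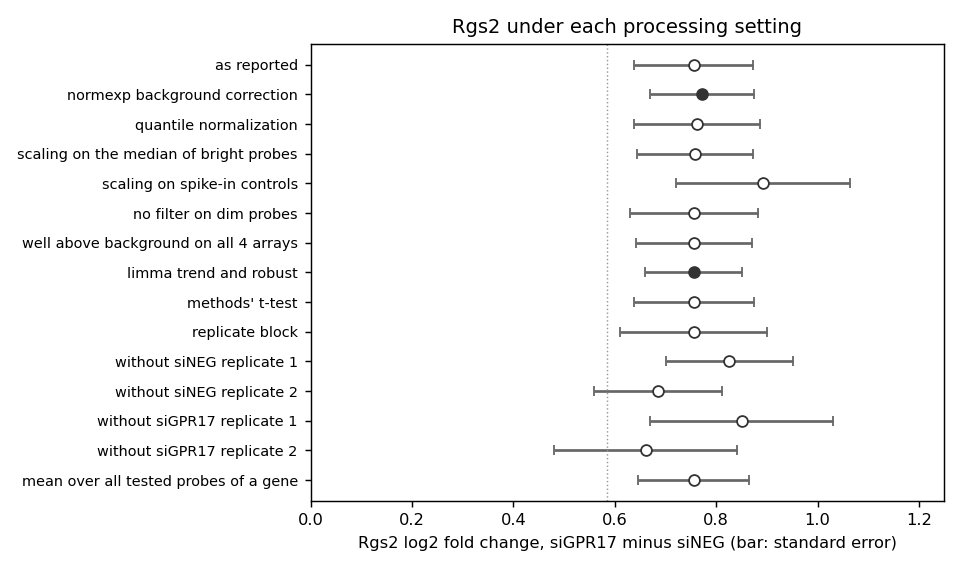
Log2 fold change of Rgs2 (siGPR17 minus siNEG) as reported and under each alternative setting. Bars are standard errors, filled points have an adjusted p under 0.07, and the dotted line marks a fold of 1.5. Every estimate lies above the line, from 0.66 to 0.89, and 2 points are filled.

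Because Rgs2 is expressed in several cell types of the brain, marker lists of other cells that a cortical culture can hold were read on the same arrays. Of 6 endothelial genes, 3 were tested and all 3 were higher in siGPR17 OPCs, also with spike-in scaling, where 48% of all tested genes were lower at the scaling used. Among the 3 was the VEGF receptor gene Kdr (log2 fold change 0.68, adjusted p = 0.209 in limma). The endothelial list summed to 337 and 354 signal units in siNEG and to 508 and 507 in siGPR17 OPCs. Most of this sum came from Kdr, at 202 and 233 in siNEG and at 354 and 340 in siGPR17 OPCs. The defining genes Pecam1 and Cldn5 were not well above background on any array. The 6 microglial genes summed to 3221 and 1736 in siNEG and to 1847 and 2354 in siGPR17 OPCs, so that the groups overlapped. Most of this sum came from Cx3cr1, and the defining microglial receptor Csf1r was likewise not well above background. All 5 tested microglial genes were lower, beside 48% of all tested genes, and 3 of 5 with spike-in scaling. The defining gene Aif1 was at -0.56 on its brighter probe and P2ry12 at -0.32 on the log2 scale (adjusted p = 0.216 and 0.269 in limma). The dimmer Aif1 probe was at -0.35 with overlapping groups and was well above background on 1 array per group. Cx3cr1, Itgam and Tmem119 were at -0.15, -0.04 and -0.03, with overlapping groups. The 6 astrocyte genes summed to 7588 and 8202 in siNEG and to 6076 and 5987 in siGPR17 OPCs, most of it from Slc1a3, and without Slc1a3 to 621 and 610 against 403 and 442. Of these 6, 4 were lower, from Aqp4 at -1.35 and Gfap at -0.61 (adjusted p = 0.209 and 0.216 in limma), and Aldh1l1 and Gja1 were at 0.27 and 0.33 with overlapping groups. The part of these cells in the Rgs2 signal was not tested.

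Rgs3, which encodes a longer RGS protein that also binds Gβγ, had 3 probes. The brightest, A_64_P149139, gave 2130.0 and 2400.2 in siNEG and 1927 and 1850.3 in siGPR17 OPCs, with both siGPR17 arrays lower. The log2 fold change was -0.26 ± 0.11 (SE, adjusted p = 0.325, limma), and the 95% interval of the fold ran from 0.684 to 1.02. A dim probe of a predicted Rgs3 transcript, A_44_P486246, was well above background on both siNEG arrays, at 19.8 and 21.1, and on neither siGPR17 array, at 16.0 and 6.53. With a floor on the siGPR17 signals it was 1.88-fold lower in siGPR17 OPCs. This value is a difference of mean log2 signals, taking on each siGPR17 array the higher of the probe's own signal and the lowest signal well above background there. On siGPR17 replicate 1 that lowest signal was 13.4, below the probe's 16.0, so 1.88 is no strict bound. Without the floor the 95% interval of the fold ran from 0.209 to 1.19 (adjusted p = 0.361 in limma), which includes no difference. The probe entered the test only through the group in which it was bright, so these values are descriptive. The third Rgs3 probe, A_43_P21004, was well above background on 0 of the 4 arrays, with signals from 3.57 to 10.9.

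Rgs16 encodes another small RGS protein of the same subfamily as Rgs2. Its probe gave 47.0 and 40.9 in siNEG and 39.2 and 44.4 in siGPR17 OPCs, and the groups overlapped. The log2 fold change was -0.07 ± 0.13 (SE, adjusted p = 0.797, limma), with a 95% interval of the fold from 0.748 to 1.21. Its sign changed without siNEG replicate 1, without siGPR17 replicate 1 and with spike-in scaling.

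Rgs9 belongs to the subfamily that works as a complex with the Gβ5 subunit. Its signals were 97.4 and 80.9 in siNEG and 82.2 and 80.7 in siGPR17 OPCs. Only siNEG replicate 1 stood clearly above the other arrays. The log2 fold change was -0.12 ± 0.13 (SE, adjusted p = 0.644, limma), with a 95% interval of the fold from 0.723 to 1.16, and without siNEG replicate 1 it was 0.0096.

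Rgs10 encodes a small RGS protein selective for Gi class subunits and known for its expression in microglia. It was the member with the most tested probes, 3. The brightest gave 843 and 834 in siNEG and 761 and 735 in siGPR17 OPCs, with a log2 fold change of -0.17 ± 0.086 (SE, adjusted p = 0.402, limma), with a 95% interval of the fold from 0.757 to 1.05. Its other probes gave -0.09 and -0.16. On each of the 3 probes both siGPR17 arrays were below both siNEG arrays, a separation seen in this direction for 25.3% of all tested genes. Of the microglial genes given above, Aif1 and P2ry12 were lower on the same arrays by their brightest probes. The dimmer Aif1 probe overlapped between the groups, as did Cx3cr1, Itgam and Tmem119. The part of microglia in the Rgs10 signal was not tested. For Rgs3, Rgs9, Rgs10 and Rgs16 the 95% interval of the brightest probe, at the scaling on the 75th percentile, did not reach a fold of 1.5 in either direction.

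**Figure D3:**
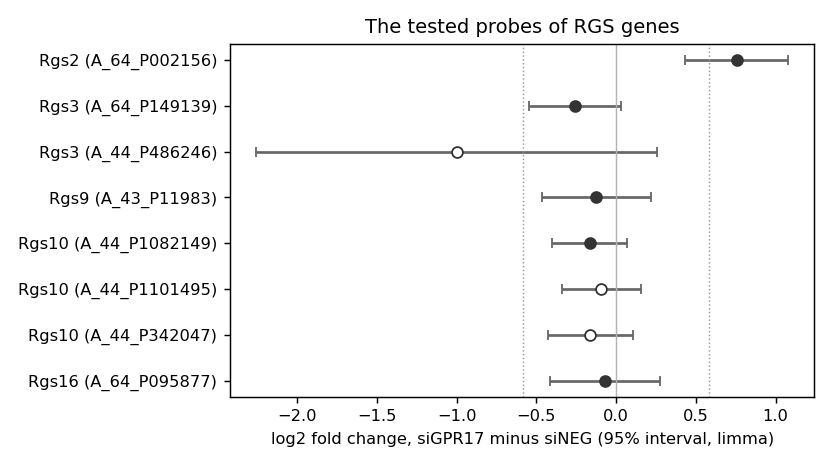
Log2 fold change (siGPR17 minus siNEG) of the 8 tested probes of RGS genes. Points are limma estimates, filled for the brightest tested probe of a gene, bars are 95% intervals, and dotted lines mark a fold of 1.5. Only the interval of Rgs2 lies wholly above 0, and the dim Rgs3 probe has the widest interval.

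The other 5 members were at or near background. Rgs4, known for high expression in neurons, had signals from 3.18 to 5.37 over its 2 probes and all arrays. Rgs5, a gene widely used to mark pericytes, had signals from 3.49 to 7.26 over its 2 probes. Both were well above background on 0 of the 4 arrays, so no difference between the groups was detectable for them. Of the pericyte and mural cell list, Abcc9, Kcnj8, Pdgfrb and Vtn were likewise not well above background on any of the 4. The list summed to 16597 and 18066 in siNEG and to 12637 and 12379 in siGPR17 OPCs, most of it from Cspg4, which is also an OPC gene. Without Cspg4 it summed to 287 and 244 in siNEG and to 295 and 286 in siGPR17 OPCs. Of its 5 tested genes 3 were higher and 2 lower, with log2 fold changes from -0.93 for Tagln to 0.65 for Anpep (adjusted p = 0.210 and 0.222 in limma). The part of these cells in the RGS signals was not tested.

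Rgs7, a neuronal partner of Gβ5, had signals of 17.3 and 19.6 in siNEG and of 16.4 and 10.1 in siGPR17 OPCs. Rgs8, known from cerebellar Purkinje cells, had signals of 15.7 and 14.9 in siNEG and of 11.3 and 6.78 in siGPR17 OPCs on the brighter of its 2 probes. Neither probe was well above background on any of the arrays, so the lower siGPR17 values give no fold. Rgs14, which also carries a domain that binds Gi alpha subunits, was well above background on 1 of the 4 arrays, siNEG replicate 1. Its signals were 18.1 and 13.5 in siNEG and 10.4 and 12.8 in siGPR17 OPCs, and with 1 such array no fold is given. Among neuronal markers, Slc17a7 and Slc32a1 were well above background on 0 of the 4 arrays. All 6 tested neuronal genes were lower in siGPR17 OPCs, beside 48% of all tested genes, and 4 of 6 with spike-in scaling. Of the 6, 3 were lower at an unadjusted p under 0.05 in limma, beside 8.73% of all tested genes. Syt1 was at only -0.0059 with overlapping groups, and its dimmer probe was at 0.26. The neuronal list summed to 1356 and 1407 in siNEG and to 1185 and 1178 in siGPR17 OPCs. Its part in the RGS signals was not tested.

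**Figure D4:**
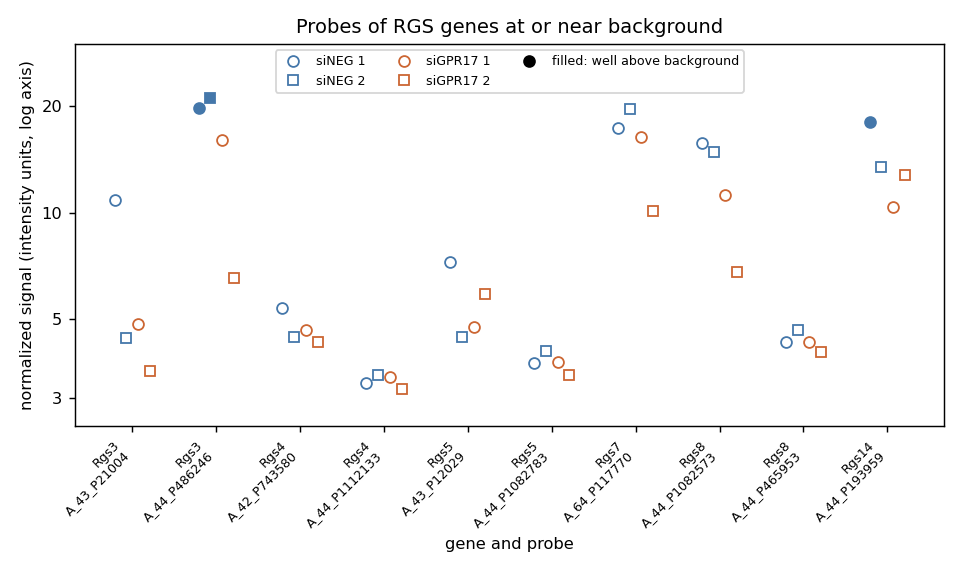
Normalized signal (log axis) of the 10 RGS probes at or near background on each of the 4 arrays. Blue marks siNEG and orange siGPR17, circles replicate 1 and squares replicate 2, and filled symbols mark spots well above background. Filled symbols occur only in siNEG, on both arrays for 1 Rgs3 probe and on 1 array for Rgs14, and signals of different probes cannot be compared with each other.

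Of 11 further RGS genes, 10 had a named probe and 4 were tested, Rgs6, Rgs12, Rgs19 and Rgs20. None was called in limma (0 of 4), and 1, Rgs12, had an unadjusted p under 0.05, beside 16.2% of all tested genes in either direction. Rgs12, a large multidomain RGS protein, gave 2187 and 2588 in siNEG and 1868 and 1911 in siGPR17 OPCs on its brighter probe, with a log2 fold change of -0.33 ± 0.12 (SE, adjusted p = 0.294, limma). Its dimmer probe gave 0.05, with overlapping groups. The median log2 fold change of the 4 was -0.04, against -0.12 for the 5 tested members and 0.0099 for all tested genes. Rgs1, an immune cell gene, had a signal of 46.5 on siGPR17 replicate 2 and of 6.23, 3.71 and 6.08 on the other arrays, so that its level rests on 1 array.

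Genes that act with RGS proteins were read as lists. Of 14 partners and modulators, 12 were tested and 0 were called, with 0 higher and 3 lower at an unadjusted p under 0.05, where 8.73% of all tested genes were lower. The 3 were Gpr158, which encodes an orphan receptor that binds RGS complexes of the Rgs7 kind, Rgs7bp, which anchors those complexes to the membrane, and Gpsm2, which binds inactive Gi alpha subunits. Gpr158 was at 57.5 and 63.6 in siNEG and at 39.5 and 43.5 in siGPR17 OPCs, with a log2 fold change of -0.54 ± 0.11 (SE, adjusted p = 0.211, limma). Rgs7bp was at 107.2 and 102.8 in siNEG and at 80.9 and 81.8 in siGPR17 OPCs, with a log2 fold change of -0.37 ± 0.087 (SE, adjusted p = 0.221, limma). Gpsm2 was at 1536 and 1470.2 in siNEG and at 1250 and 1210.0 in siGPR17 OPCs (log2 fold change -0.29). With spike-in scaling the unadjusted limma p was 0.151 for Rgs7bp and 0.299 for Gpsm2, and with normexp Rgs7bp had a p of 0.0725 and Gpr158 a log2 fold change of -0.24. Gnb5, the gene of Gβ5 itself, was at 0.09 on its brighter probe and at -0.13 on its dimmer one. The median of the list was -0.12.

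Among 15 G alpha genes, 11 were tested and 0 were called, with a median of 0.06. Only Gnal, of the olfactory stimulatory class, had an unadjusted p under 0.05, beside 16.2% of all tested genes in either direction. Its log2 fold change was 0.37 (adjusted p = 0.261 in limma). Among the subunits that RGS proteins act on, the log2 fold change was 0.06 for Gnai2, -0.06 for Gnai3, 0.07 for Gnaq and 0.07 for Gna11. Gnai1 was at 26.2 and 16.0 in siNEG and at 31.0 and 84.5 in siGPR17 OPCs, with the siGPR17 arrays far apart. Of 16 Gβ and Gγ genes, 12 were tested, with 0 called, 0 at an unadjusted p under 0.05 and a median of -0.07. Of 12 genes of the Gq pathway, 8 were tested, with 0 called and a median of -0.00063. Plcb3, a phospholipase that Gq activates, was at 0.34 on its brighter probe (adjusted p = 0.270 in limma) and at -0.20 on its dimmer probe. Small shifts of these lists depend on the scaling: on spike-in controls the list medians became 0.098 for the further RGS genes, 0.019 for the partners, 0.20 for G alpha, 0.069 for Gβ and Gγ and 0.14 for the Gq pathway, beside 0.15 for all tested probes.

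**Figure D5:**
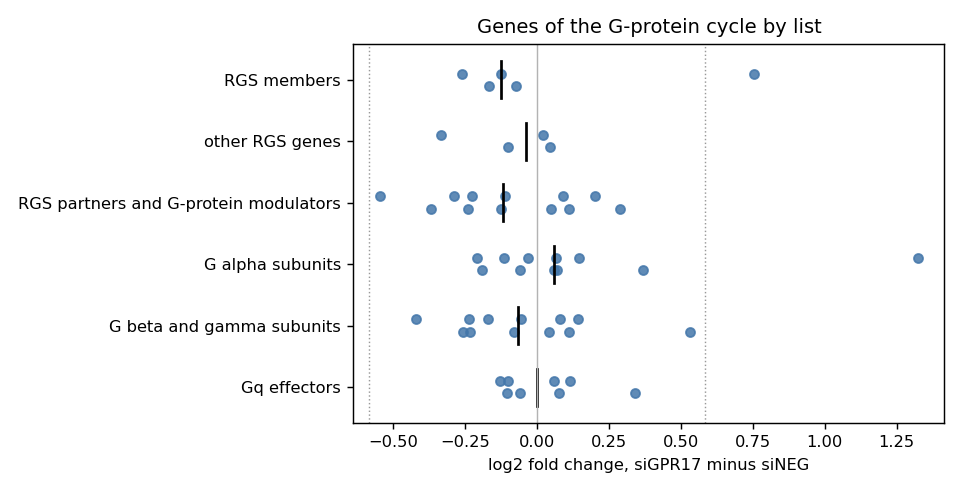
Log2 fold change (siGPR17 minus siNEG) of each tested gene of the G-protein cycle by list. Each point is the brightest tested probe of 1 gene, vertical bars are list medians, and dotted lines mark a fold of 1.5. Rgs2 at 0.76 and Gnai1 at 1.32 are the points beyond a fold of 1.5, and Gnai1 was well above background on only 1 siNEG array.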

How the data were processed

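The data are 4 single-colour arrays, 2 of siNEG and 2 of siGPR17 OPCs, grouped by their titles. The authors deposited the intensity of each spot from Agilent Feature Extraction 10.7.3.1, background-subtracted but not normalized between arrays. From these, log2 values minus each array's 75th percentile were computed here. Control and outlier-flagged spots were left out and spots of a probe averaged, leaving 45565 probes. Probes were named through RefSeq accessions (GRCr8 table), which gave 21109 probes 1 symbol and 24489 none. A gene is represented by its brightest tested probe. A linear model with empirical Bayes moderation (limma 3.58.1, R 4.3.3) was fitted over all 28016 tested probes, with Benjamini-Hochberg adjustment. It was tested on simulated data. The paragraph of the study on its arrays names no test, and its statistics section names an unpaired t-test for comparisons of 2 groups, here called the methods' t-test. Normexp used the median signal and the median background of each spot. Named were Gpr17, every member, and list genes with an unadjusted p under 0.05. Genes named beyond these were chosen after their values were seen. Members and lists were chosen with earlier results of these data known. The number of arrays limits the precision.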

Additional observations from a re-analysis of the deposited data

How the results depend on the processing

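With 2 arrays per group, and probes at or near background for 5 of the 10 genes, small differences were not detectable. All tested probes past the thresholds numbered 1, and this became 242 with normexp, 420 with a trended, robust spread, and 0 with spike-in scaling, without a filter, with a filter on all 4 arrays, with the methods' t-test, with the replicate block and, as a range from 0 to 0, with each array left out. RGS genes past the thresholds numbered 1, Rgs2, with normexp and with the trended spread, and 0 under the other alternatives. The median log2 fold change of the 5 tested RGS genes was 0.012 with spike-in scaling, which moved the median of all tested probes to 0.15, and with 1 array left out it ranged from -0.17 to 0.0096. With spike-in scaling Rgs9 was at 0.012 and Rgs16 at 0.063, above 0 but below that shift. In the same omissions Rgs9 ranged from -0.26 to 0.0096, and Rgs16 from -0.17 to 0.028, above 0 without siNEG replicate 1 and, at 0.017, without siGPR17 replicate 1. Rgs2, Rgs3 and Rgs10 kept their sign under all 14 alternatives. Arrays with the same replicate number shared a slide row, row 1 for replicate 1 and row 2 for replicate 2. They did not deviate together (r = -0.065 across probes), but this cannot settle whether the number marks a pairing of cultures. With the replicate number as a block, Rgs2 had an adjusted p of 0.390 in limma. The causes of these changes were not tested.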
